A study of Homo sapiens with 7 samples.

Results

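T-47D is an established line of luminal ductal breast carcinoma cells, and its contacts between active promoters and distal regions were taken from 1 H3K27ac HiChIP library. The library gave 1 of the 3 loop lists of the study, which covered 7 samples of 3 cancer cell lines. Per the labels, the cells were grown in RPMI with serum, crosslinked chromatin was cut with MboI (an enzyme that cuts at GATC), and an antibody against histone H3 acetylated at lysine 27 was used. The treatment of the T-47D sample is not given in the labels. All rows of the T-47D list that joined 2 different anchors (the fragments at either end of a loop) on 1 autosome were kept. They made up 41562 loops of the 351347 such loops in the 3 lists, with 348544 read pairs joining their anchors, 5 as the median and 3 to 513 as the range per loop. Another 15042 of the 57139 rows joined an anchor to itself, 70 crossed chromosomes and 465 lay on chromosome X. None of these was ranked.

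HiChIP ligates fragments of DNA that lie close together in the nucleus and enriches for ligated fragments that carry a chosen protein or mark. Acetylation of lysine 27 of histone H3 marks active promoters and enhancers, so the list is weighted towards contacts of active chromatin. Luminal breast cells are kept in their state by a small group of transcription factors, among them GATA3, FOXA1 and the estrogen receptor, whose genes are known to be controlled by enhancers far from their start sites.

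A promoter anchor overlapped a window of 500 bp centred on a start site of a protein-coding gene (GENCODE release 44, lifted to GRCh37), and a promoter-free anchor overlapped no such window. Of the 19066 anchors, 9349 were promoter anchors and 9717 were promoter-free, with median widths of 2.85 kb and 2.37 kb. Each of 19229 autosomal genes was ranked by the number of different promoter-free anchors joined to its promoter anchors and by the read pairs in all loops of its promoter anchors. A promoter anchor was found for 9742 genes, and 6886 genes had 1 or more promoter-free anchors, with a median of 2 among them. The place of gene 200 was set at 8 promoter-free anchors, and ties brought in 254 genes, of which 74 had exactly 8. The genes just outside, 132 in number, had 7. By read pairs 200 genes held a place, the last at 240 read pairs and the next gene outside at 239. These are called the leading genes by anchors and by read pairs. With 1 library there was no replicate, so no difference below was tested, and every value describes this list.

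The strongest distal contacts of leading regulators and receptors are shown by a stretch of sequence, because the ranks count such contacts. For each gene the 150 bases of its strongest promoter-free anchor that held the most different sequence words were taken from GRCh37 (plus strand), outside exons of protein-coding genes. Capitals mark the words AGATAA (the site read by GATA factors, TTATCT on the other strand), TGANTCA (AP-1), TGTTTAC (FOXA factors, GTAAACA on the other strand) and GCC, any 3 bases, GGC (AP-2).
GATA3 contact, chr10:9238631-9238780: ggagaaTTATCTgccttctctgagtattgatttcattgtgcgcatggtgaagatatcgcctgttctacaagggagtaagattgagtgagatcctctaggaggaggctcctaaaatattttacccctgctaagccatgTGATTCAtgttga
PGR contact, chr11:101217464-101217613: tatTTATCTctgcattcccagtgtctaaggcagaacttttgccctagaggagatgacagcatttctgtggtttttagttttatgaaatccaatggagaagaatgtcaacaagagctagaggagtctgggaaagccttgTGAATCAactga
ESR1 contact, chr6:151980639-151980788: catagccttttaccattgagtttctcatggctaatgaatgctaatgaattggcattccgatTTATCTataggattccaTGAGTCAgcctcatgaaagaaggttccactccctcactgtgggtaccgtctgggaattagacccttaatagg
TFAP2C contact, chr20:55366163-55366312: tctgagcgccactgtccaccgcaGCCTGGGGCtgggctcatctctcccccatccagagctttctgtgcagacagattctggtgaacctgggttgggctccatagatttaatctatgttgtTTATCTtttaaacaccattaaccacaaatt
FOXA1 contact, chr14:37714814-37714963: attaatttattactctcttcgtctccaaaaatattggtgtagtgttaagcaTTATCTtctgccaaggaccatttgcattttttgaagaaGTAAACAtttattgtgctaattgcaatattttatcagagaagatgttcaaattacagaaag
TBL1XR1 contact, chr3:177075339-177075488: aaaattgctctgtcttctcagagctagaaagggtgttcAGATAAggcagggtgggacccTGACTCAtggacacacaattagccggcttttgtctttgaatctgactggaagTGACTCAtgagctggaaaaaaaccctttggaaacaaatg
PRLR contact, chr5:35249835-35249984: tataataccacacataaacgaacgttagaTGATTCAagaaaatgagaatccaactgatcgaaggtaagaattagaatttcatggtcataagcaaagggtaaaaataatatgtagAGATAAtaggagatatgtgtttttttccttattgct

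The GATA3, PGR, ESR1, TBL1XR1 and PRLR stretches each held a GATA word and an AP-1 word. The FOXA1 stretch, which lies in an intron of MIPOL1, held a FOXA word and a GATA word, and the TFAP2C stretch held an AP-2 word and a GATA word. Since these stretches were picked for their words, the matches say nothing about how often the words occur.

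A full estrogen response element (GGTCA, any 3 bases, TGACC) is the palindrome bound by a dimer of the estrogen receptor. Elements at contacts of MED13L, IGFBP5, ZMIZ1 and GREB1 are shown, with 30 bases on each side and the element in capitals.
MED13L contact, chr12:116828355-116828427: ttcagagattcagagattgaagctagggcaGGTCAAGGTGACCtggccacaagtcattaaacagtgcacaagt
IGFBP5 contact, chr2:217957436-217957508: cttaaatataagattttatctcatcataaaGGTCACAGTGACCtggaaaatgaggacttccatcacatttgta
ZMIZ1 contact, chr10:80888491-80888563: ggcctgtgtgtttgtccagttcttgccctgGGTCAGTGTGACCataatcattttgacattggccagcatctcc
ZMIZ1 contact, chr10:80918398-80918470: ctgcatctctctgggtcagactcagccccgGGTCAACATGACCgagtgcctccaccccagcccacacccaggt
GREB1 contact, chr2:11672630-11672702: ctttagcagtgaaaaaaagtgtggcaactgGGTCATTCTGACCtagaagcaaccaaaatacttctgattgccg

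GREB1, an early target of the estrogen receptor that also acts as its cofactor, was joined to its element by 134 read pairs at 8.04 kb upstream of the start site in the joined promoter anchor, inside the GREB1 gene. MED13L, a subunit of the Mediator kinase module, was joined to its element by 133 read pairs at 113 kb upstream. The IGFBP5 contact (26 read pairs) lay 396 kb upstream, and the 2 contacts of ZMIZ1, a coactivator, lay 58.9 kb and 88.8 kb downstream in its own gene with 22 and 17 read pairs. Over all 9717 promoter-free anchors the full element occurred in 69 (0.71%), and in 14 of the 1857 anchors joined to leading genes by anchors (0.754%). In the central 1 kb, which sets anchors at equal length, it occurred in 0.401% and 0.323%. Of the 153 anchors joined to leading estrogen response genes 3 held it (1.96%), 0 of them in the central 1 kb. Of the 182 joined to leading luminal transcription factors 1 did, an anchor of TRPS1. ZNF703 and TIPARP also had 1 anchor each with the element, and no element is shown for TRPS1, ZNF703 or TIPARP.

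The places of the luminal markers GATA3, TRPS1, PGR, ESR1 and TFAP2C were read from the list. Markers and gene lists were chosen with earlier results of these data known. Their places are therefore a description and not a separate check of luminal identity. All 5 had a promoter anchor and held a place by promoter-free anchors, against 1.32% of all autosomal genes. By read pairs 3 of the 5 held a place, against 1.04% of all genes. Of all autosomal genes 35.8% had a promoter-free anchor. Of 24 luminal transcription factors 20 had one (83.3%), and of 20 stromal, endothelial and immune genes 1, namely COL1A1 with 3 promoter-free anchors. Of 23 basal and myoepithelial genes 9 had one (39.1%), a share near that of all genes. CD14 and CD3D, which mark myeloid and T cells, had no loop.

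TRPS1, a GATA-type repressor of luminal cells, had the most read pairs of all genes (2557) and the second place by anchors (36 promoter-free anchors). GATA3, the GATA factor that specifies luminal cells, had 1063 read pairs and 30 promoter-free anchors. PGR, the progesterone receptor, had 517 and 21, and ESR1, the estrogen receptor, had 195 and 13. TFAP2C, an AP-2 factor, had only 77 read pairs but 9 promoter-free anchors. ESR1 and TFAP2C thus lay below the threshold of 240 read pairs while passing that of 8 anchors.

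**Figure D1:**
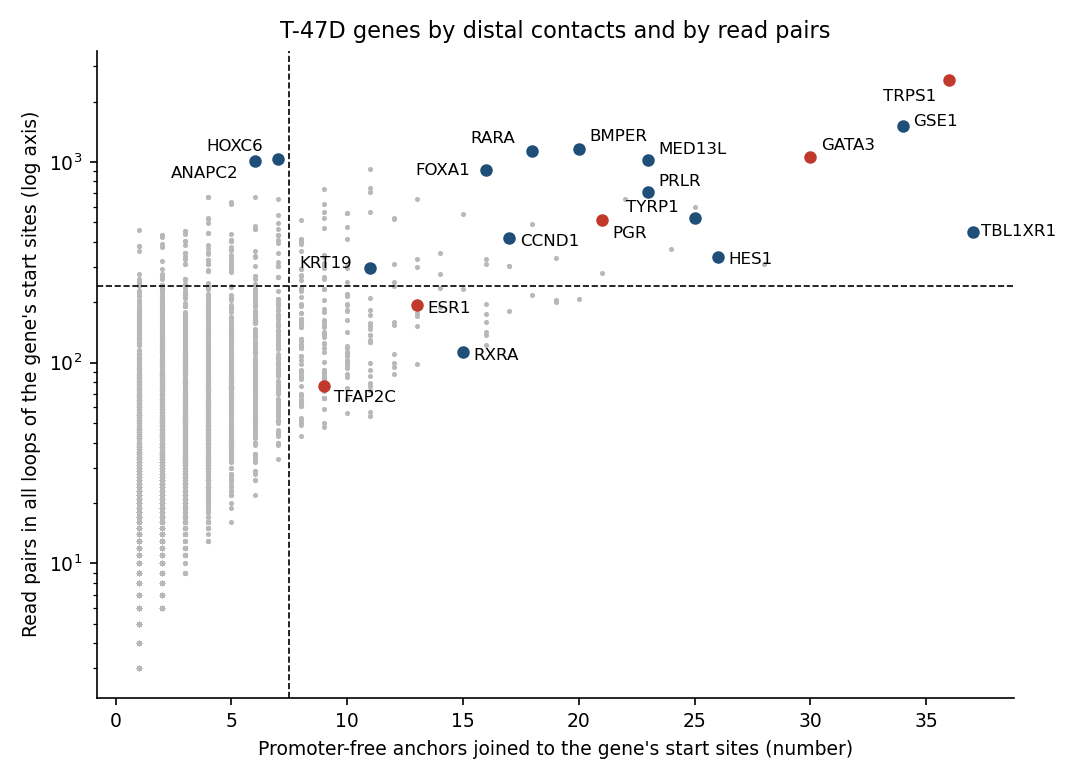
Number of promoter-free anchors (x axis) against read pairs in all loops of the gene's start sites (y axis, log scale) for the 6886 T-47D genes with 1 or more promoter-free anchors, each point a gene. Red points are the 5 luminal markers, blue points other named genes, and the dashed lines the thresholds of both ranks. TRPS1, GSE1 and GATA3 lie at the upper right, HOXC6 and ANAPC2 have many read pairs but 7 and 6 promoter-free anchors, and ESR1 and TFAP2C lie below the read pair threshold.

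The contacts of GATA3 lay far from the gene. The strongest (219 read pairs) joined the start site to chr10:9238406-9247314, 1146 kb downstream and between genes, and the next (192 read pairs) lay in an intron of GATA3, 3.99 kb downstream. A band from 804 to 1247 kb downstream held 18 of the 30 promoter-free anchors and 541 of the 813 read pairs to promoter-free anchors (66.5%). No other protein-coding start site lay between GATA3 and 27 of its 30 anchors. The limits of this and the other bands were set after the values were seen.

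PGR reached the other way. Its strongest contact, with 124 read pairs, lay 216 kb upstream, and 18 of its 21 promoter-free anchors were upstream. The band from 126 to 313 kb upstream held 14 anchors and 85.5% of the read pairs to promoter-free anchors. The contact inside the gene, 94.4 kb downstream of the start site, had 31 read pairs.

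ESR1 contacts were short and weak by comparison. The 2 strongest had 25 and 24 read pairs, 30.2 and 9.6 kb upstream of the start site in the joined promoter anchor, and 9 of the 13 lay in the gene itself, whose start sites are spread over many alternative first exons. Their median distance was 38.2 kb, against 902 kb for GATA3, 201 kb for PGR and 215 kb for TRPS1. All 9 promoter-free anchors of TFAP2C lay downstream and between genes, 60.6 to 367 kb away, and the strongest had 16 read pairs at 160 kb.

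TRPS1 combined both patterns, with 12 promoter-free anchors inside the gene and 26 of 36 upstream. The strongest (342 read pairs) lay in the gene, 12 kb downstream of a start site, the next (232 read pairs) 25.9 kb upstream, and the most distant upstream anchor 906 kb away in EIF3H. Every promoter-free anchor of TRPS1 was free of another protein-coding start site in between. The TRPS1 values rest on alternative start sites, because its Ensembl canonical start site lay in no anchor of a loop. The same held for GREB1, TFAP2A, NR2F2, KRT7, MYC, TYRP1, BMPER, CUEDC1 and HOXC6 below, which had 0 promoter-free anchors when 1 start site per gene was used.

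**Figure D2:**
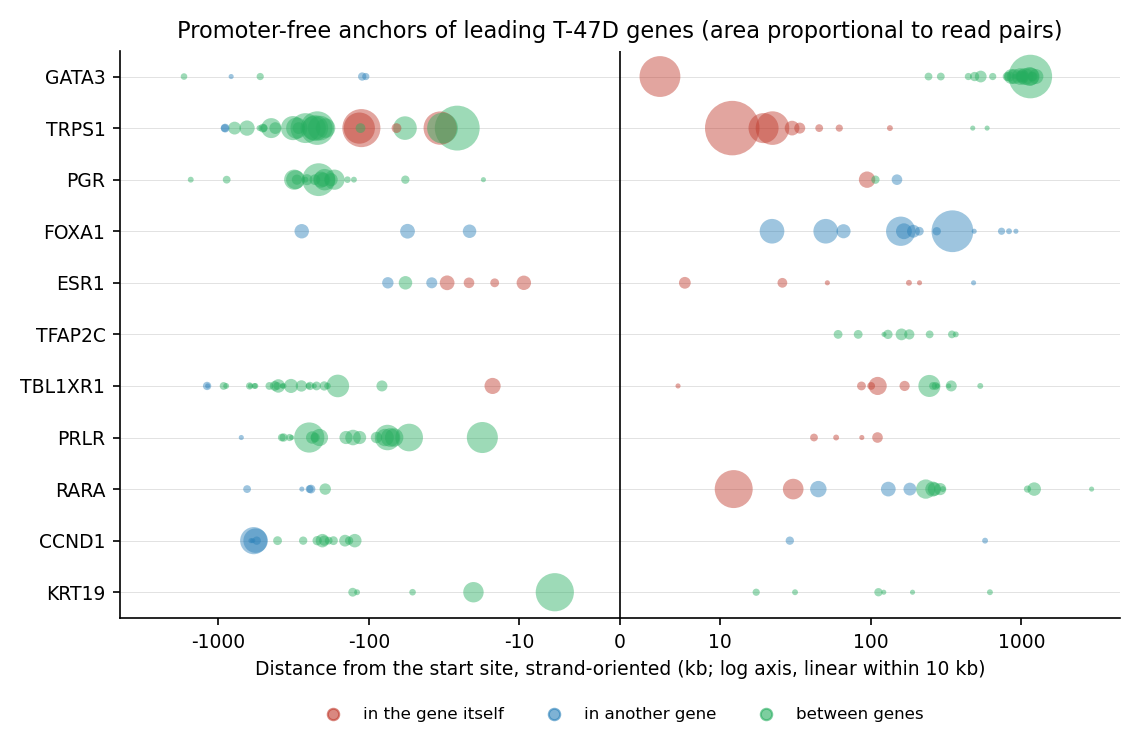
Strand-oriented distance in kb (log axis, linear within 10 kb) from the start site to each promoter-free anchor of 11 T-47D genes, with negative values upstream. Point area is proportional to read pairs and colour gives the place of the anchor. GATA3 has its cluster near 1000 kb downstream, PGR, PRLR and CCND1 lie mostly upstream, FOXA1 contacts all lie in other genes, and ESR1 contacts lie close to its start sites.

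Transcription factors and coregulators, 580 genes in all, held 41 places by anchors and 21 by read pairs (7.07% and 3.62%). The shares of all autosomal genes, to be set beside this and every list below, were 1.32% and 1.04%. Among genes with 1 or more promoter-free anchors they were 3.69% and 2.90%. Luminal transcription factors stood highest among the lists, with 11 of 24 by anchors (45.8%) and 6 by read pairs (25%). Besides the markers the 11 were FOXA1 (16 promoter-free anchors), ZNF217 (19), EHF (10), CEBPB (10), MYBL1 (10) and TFAP2A (8). With 1 start site per gene 7 held a place by anchors, and TRPS1, ESR1, EHF and TFAP2A did not. The list overlaps the markers, so the count is not separate from theirs.

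FOXA1, the pioneer factor that opens chromatin for the estrogen receptor, had 908 read pairs. Its strongest contact (201 read pairs) lay 348 kb downstream in MIPOL1, and 9 of its 16 promoter-free anchors, with 528 read pairs, lay in that neighbouring gene. FOXA1 shared its 18.7 kb promoter anchor with TTC6, which therefore had the same values, and the list cannot tell the 2 genes apart. ZNF217, a zinc finger factor amplified in breast cancer, had 18 of 19 promoter-free anchors upstream, within 529 kb, and the strongest had 69 read pairs at 146 kb. EHF, an epithelial ETS factor, had 474 read pairs but only 40.1% of them to promoter-free anchors.

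Among the 476 other transcription factors, 21 held a place by anchors (4.41%) and 11 by read pairs (2.31%). All autosomal genes had 1.32% and 1.04%, and genes with a promoter-free anchor 3.69% and 2.90%. ZNF217 is in this list too and is counted in both. HES1, the repressor downstream of Notch, was the highest, with 26 promoter-free anchors and 335 read pairs, and 24 of the 26 lay between genes. ZFP36L1, listed here although it encodes an RNA-binding zinc finger protein, had 21, KLF6 had 18, SATB1 had 17 and MECOM and NFIB had 16 each. SATB1 shared a promoter anchor of 12.2 kb with TBC1D5, and 15 of its 17 promoter-free anchors were joined to both genes. The HOXC genes, which pattern the body axis, appeared by read pairs and not by anchors. HOXC6 had 1035 read pairs, HOXC9 651, HOXC11 494 and HOXC13 251, with 4 to 7 promoter-free anchors each.

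The coregulators of nuclear receptors held 7 of 37 places by anchors (18.9%) and 3 by read pairs (8.11%). TBL1XR1, a subunit of nuclear receptor corepressor complexes, had the most promoter-free anchors of all genes (37), with 449 read pairs. At a minimum of 10 read pairs per loop it had 11, against 20 each for TRPS1 and GSE1 and 12 for GATA3. None of its contacts was strong, the highest having 59 read pairs at 161 kb upstream, and all 37 were reached without passing another protein-coding start site. GSE1, a partner of the LSD1 and CoREST complex, had 34 promoter-free anchors and 1512 read pairs, and its contact 147 kb upstream, inside the gene, was the strongest contact of any leading gene (516 read pairs summed over its promoter anchors). Lower places were held by TLE3 and CITED2 (11 promoter-free anchors each), ZMIZ1 (10) and GREB1 (9). GREB1 held 615 read pairs, of which 146 joined a start site to an anchor 17.3 kb downstream.

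Receptor genes followed. Of 46 nuclear receptors 5 held a place by anchors (10.9%) and 3 by read pairs (6.52%), and of 65 cell surface receptors 6 held a place by each rank (9.23%). RARA, the retinoic acid receptor alpha and a known estrogen target, had 1131 read pairs and 18 promoter-free anchors. Its strongest contact (166 read pairs) was 12.3 kb downstream in its own gene, and its promoter was also joined to promoters of 21 other genes, so that only 41.7% of its read pairs reached promoter-free anchors. RXRA, the partner of many nuclear receptors, had 15 promoter-free anchors but 113 read pairs, all of them to promoter-free anchors, and 9 of the 15 lay in RXRA itself. NR2F2 had 9, all upstream and between genes.

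PRLR, the prolactin receptor, led the cell surface receptors with 23 promoter-free anchors and 705 read pairs. The band upstream to 379 kb held 18 anchors and 95.7% of its read pairs to promoter-free anchors, with 111 read pairs at 17.6 kb and 105 at 249 kb. NOTCH1 had 12, IGF1R 11, DDR1 9, and GHR and ERBB2 8 each. The ERBB2 promoter, which sits in a dense stretch of genes, sent 32.9% of its read pairs to promoter-free anchors. ERBB3 and PLXNB2 held a place by read pairs alone, and ERBB3 had 1 promoter-free anchor and loops to promoters of 31 other genes.

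Luminal structural genes, meaning keratins, junction and secreted proteins, were less frequent, with 3 of 33 by anchors (9.09%) and 4 by read pairs (12.1%). STC2, a secreted glycoprotein induced by estrogen, had 18 promoter-free anchors and 491 read pairs, and 16 of the anchors were upstream. KRT19, the luminal keratin, had 11 and 296. Its strongest contact (168 read pairs) lay 6.48 kb upstream. KRT7 had 9 promoter-free anchors and 101 read pairs, whereas KRT8 (307 read pairs, 5 promoter-free anchors) and JUP (288 and 4) held a place by read pairs alone. KRT7 shared a promoter anchor and all 9 promoter-free anchors with KRT86, and 8 of the 9 were also joined to KRT80. Of the 23 genes in the basal and myoepithelial list ID4 alone held a place, with 8 promoter-free anchors. KRT15, a keratin of basal cells that is in none of the lists and was chosen after its values were seen, held both places with 14 promoter-free anchors and 277 read pairs, and all 11 anchors of KRT19 were among its 14. Of 77 ribosomal protein genes, which are active in all cells, 0 held a place by anchors and 1 by read pairs, RPL41, counts near the shares of all genes (1.32% and 1.04%).

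**Figure D3:**
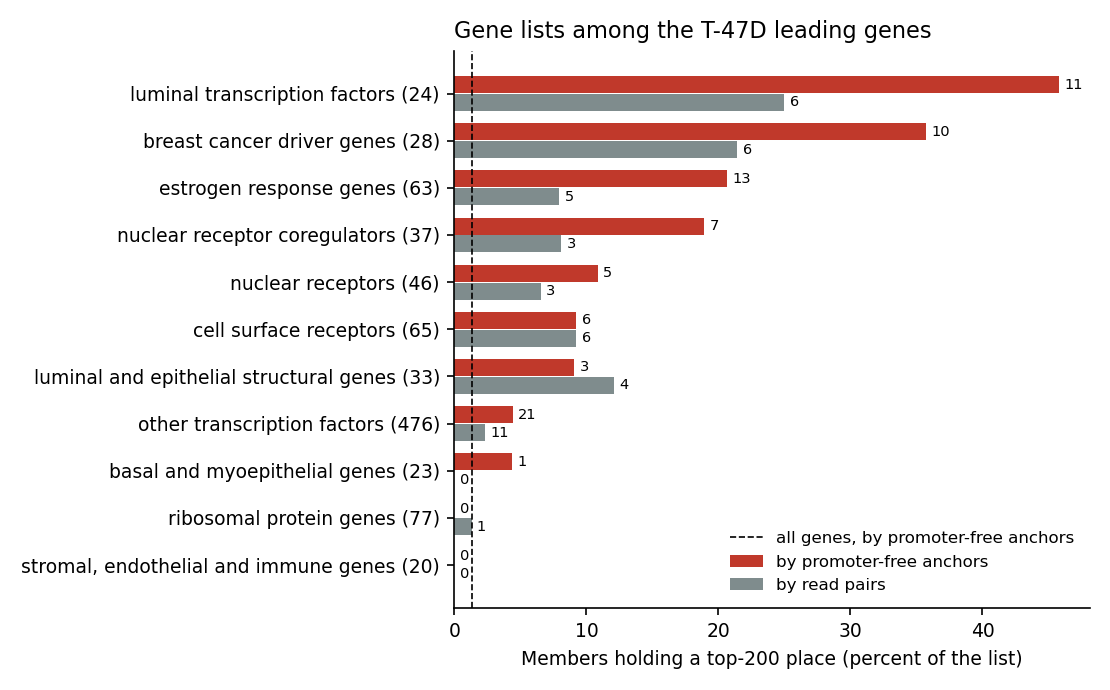
Percent of each gene list that held a place by promoter-free anchors (red) and by read pairs (grey), with the number of members at the end of each bar and the number of autosomal genes in the list in brackets. The dashed line marks the share of all genes by anchors (1.32%). Luminal transcription factors reach 45.8% and 25%, and the stromal, endothelial and immune list has no member in either rank. Several lists share members.

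Estrogen response genes held 13 of 63 places by anchors (20.6%) and 5 by read pairs (7.94%). They include PGR, RARA, STC2, GREB1 and MYBL1 from the lists above. CCND1, which encodes cyclin D1, had 17 promoter-free anchors and 420 read pairs, and its 2 strongest contacts (85 and 69 read pairs) lay 582 and 565 kb upstream in TPCN2. INHBB, an inhibin subunit, had 13, IGFBP5 12, IGFBP4 and MYC 11 each, and KLF10, WWC1 and TIPARP 8 each. All 11 anchors of IGFBP4 were among the 18 of RARA, so these places rest partly on the same anchors. All 12 IGFBP5 anchors lay upstream, at a median distance of 625 kb. The 11 anchors of MYC had 79 read pairs in all, and 10 of the 11 lay downstream, up to 916 kb away. Breast cancer driver genes, a list that overlaps the luminal factors and estrogen response genes, held 10 of 28 places by anchors (35.7%) and 6 by read pairs (21.4%). MAP3K1, a kinase often mutated in luminal tumours, had 20 promoter-free anchors but 208 read pairs, with 18 anchors upstream.

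The other genes high by anchors included EDN1 (25 promoter-free anchors), which encodes endothelin, TYRP1 (25), a melanocyte enzyme, NAALADL2 (28), EMC8 (24), MED13L (23), IRF2BP2 (22) and BMPER (20). Several of them lay beside another leading gene and were joined to the same anchors, a point chosen for description after the values were seen. All 16 anchors of NFIB were among the 25 of TYRP1, 23 of the 24 anchors of EMC8 were among the 34 of GSE1, all 12 of EIF3H among the 36 of TRPS1 and all 12 of MIPOL1 among the 16 of FOXA1. Listed luminal factors shared anchors too, with all 10 of MYBL1 among the 17 of SGK3 and 9 of the 10 of CEBPB among the 15 of PARD6B. Which of the neighbouring promoters such an anchor acts on was not tested. The 254 leading genes by anchors had 235 different sets of promoter anchors, and the 200 by read pairs had 170.

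The ranks overlapped but also held different kinds of gene. Both places were held by 75 genes. They were 29.5% of the leading genes by anchors, against 1.04% of all genes with a place by read pairs. They were 37.5% of those by read pairs, against 1.32% of all genes with a place by anchors. Regulators and receptors made up 47 of the leading genes by anchors and 27 by read pairs. Of the 580 transcription factors and coregulators 7.07% and 3.62% held a place, against 1.32% and 1.04% of all genes. Histone genes held 2 and 20 places. Several of them shared 1 promoter anchor and its read pairs, and the share of all histone genes with a place was not counted. The median leading gene by anchors sent 73.9% of its read pairs to promoter-free anchors and was joined to promoters of 4 other genes. By read pairs the median share was 20.9% and the median number of joined promoter genes 17. ANAPC2, with 1010 read pairs, sent 7.82% of them to promoter-free anchors, and the histone genes H2AC4 and H3C2, with 668 read pairs each, were joined to 36 other promoter genes each. Gene density moved with this difference. The median number of other protein-coding genes within 500 kb, each placed at its canonical start site, was 8.5 for leading genes by anchors, 31 by read pairs and 13 for all genes with a promoter-free anchor. Promoter anchors differed too, with a median summed width of 5.31 kb and 57.5 read pairs of an anchor with itself for leading genes by anchors, 5.93 kb and 115.5 by read pairs, and 3.16 kb and 18 for all genes with a promoter-free anchor. The parts of gene density and of promoter anchor width in the ranks were not tested.

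Leading genes by anchors were joined to their promoter-free anchors by 3069 loops with a median span of 137 kb (95% order-statistic interval 129 to 144, which treats loops as independent although they share anchors). This value depended on weak loops and was 88.2 kb at a minimum of 5 read pairs per loop and 47.8 kb at 10. For genes outside the leading group the median span was 77.3 kb (13422 loops) at the minimum of 3 read pairs. Their span was not computed at 5 or 10, so the difference is described at 3 alone. Loops of 500 kb or more made up 13.5% for leading genes and 5.35% for genes outside. Within the leading genes the luminal transcription factors had a median span of 195 kb (278 loops, 163 to 226) with 22.7% at 500 kb or more, the receptors 127 kb (211 loops) with 6.16%, the structural genes 121 kb (42 loops) with 16.7% and the genes in no regulator, receptor or structural list 124 kb (2225 loops) with 11.8%. All 41 leading transcription factors and coregulators, which include the luminal factors, had a median span of 199 kb (762 loops). Of their loops 19.9% spanned 500 kb or more, so long spans were not particular to the luminal factors. PGR and ESR1 belong to both the luminal factors and the receptors. Luminal factor loops were pooled over 11 genes, and TRPS1, GATA3 and PGR held 36, 30 and 21 of their 182 contacts. The 278 loops count a contact once for each promoter anchor it joins. TRPS1 with 3 promoter anchors and GATA3 with 2 can therefore weigh more in the span than their contacts show, unlike PGR with 1. Of the 30 GATA3 anchors 18 lay 804 to 1247 kb away, whereas ESR1 contacts had a median distance of 38.2 kb. The pooled span thus leans on genes with many anchors and need not hold for each factor.

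**Figure D4:**
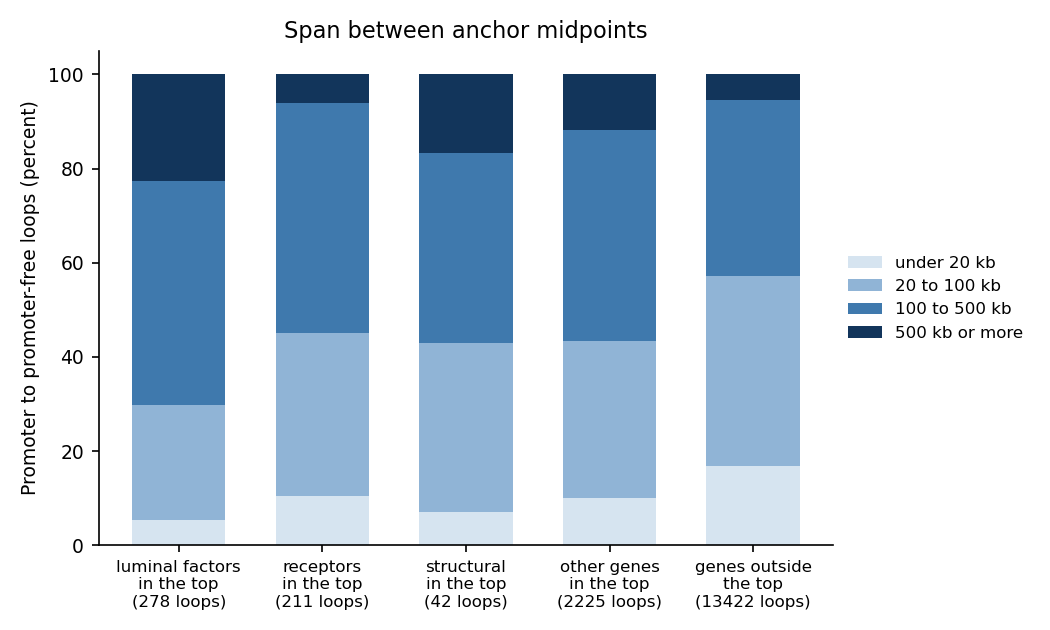
Percent of promoter to promoter-free loops in 4 classes of span between anchor midpoints, for leading genes by anchors in 4 groups and for genes outside. Loops of 500 kb or more (darkest) make up 22.7% for luminal transcription factors, 6.16% for receptors, 16.7% for structural genes and 5.35% for genes outside the leading group.

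Contacts of the leading genes were split evenly between the sides of the start site, with 50.3% upstream. They lay between genes in 57.3%, in the gene itself in 16.8% and in another gene in 25.9%. For the luminal transcription factors 68.7% lay between genes, and for the receptors 29.3% lay in the receptor gene itself. For all 41 leading transcription factors and coregulators 63.5% lay between genes. These pooled shares cover unlike members. Between genes lay 0 of 16 contacts of FOXA1 and 9 of 9 of TFAP2C, and in the gene itself 0 of 9 of NR2F2 and 7 of 8 of GHR. No other protein-coding start site stood between promoter and anchor for 53.1% of the contacts of leading genes, 87.4% of those of luminal factors, 75.5% of those of receptors and 39.5% of those of structural genes. The nearest canonical start site was that of the joined gene in 34.9%, 67.6%, 52.4% and 18.4%. All 41 leading transcription factors and coregulators had 81.6% and 59.1% by these measures, and genes outside the leading group had 39.8% and 26.5%. RARA and KRT19, in gene-dense regions, contrasted with GATA3, since only 3 of 18 and 2 of 11 of their anchors were reached without passing another start site.

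The longest contacts of leading genes spanned 24622 kb and joined NOTCH2NL and NBPF10 start sites with NOTCH2 by 6 read pairs, and LRRC37A3 was joined 19254 kb away by 44 read pairs. These genes belong to families with near-identical copies, so their contacts and places are uncertain where reads could be placed on another copy. CUEDC1, without such a family among the names used here, had contacts up to 8968 kb away and 1128 read pairs. T-47D chromosomes are rearranged and copy number was not measured here, so the part of gained or joined segments in any gene's read pairs was not tested.

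Sequence words were counted in the central 1 kb of each promoter-free anchor, on both strands, to compare anchors at equal length. The GATA word was in 41.9% of all 9717 promoter-free anchors, in 41.1% of the 1857 joined to leading genes and in 52.2% of the 182 joined to leading luminal transcription factors. The AP-2 word ran the other way, in 28.9%, 31.1% and 17.6%. AP-1 words were in 29.0%, 29.2% and 33.5%, and FOXA words in 17.4%, 17.1% and 19.2%. Base composition moved with these counts, the mean G and C content being 46.9%, 47.2% and 40.7%, and its part in them was not tested. Over whole anchors the GATA word occurred 0.647 times per kb in all promoter-free anchors and 0.828 times per kb in those of the luminal factors. Single luminal factors ranged from 0.378 per kb (CEBPB) to 0.995 (EHF). Other named leading genes ranged from 0.0549 (NOTCH1) to 1.23 (NFIB), so a high density of GATA words was not particular to the luminal factors. A match describes the letters alone and does not show that a factor was bound.

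**Figure D5:**
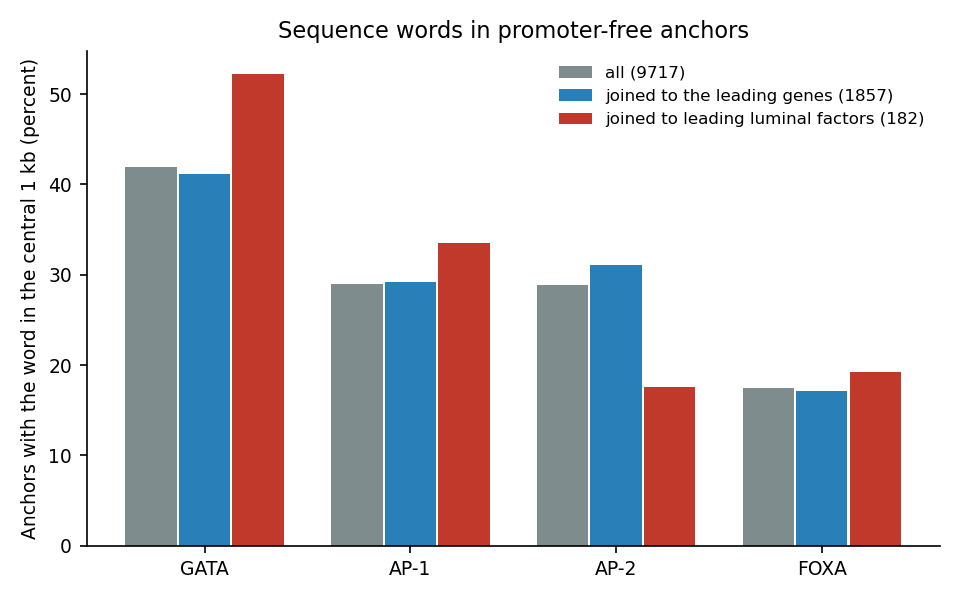
Percent of promoter-free anchors with a GATA, AP-1, AP-2 or FOXA word in the central 1 kb, for all anchors (grey), those joined to leading genes (blue) and those joined to leading luminal transcription factors (red), with the number of anchors in brackets. The GATA bar rises from 41.9% to 52.2% and the AP-2 bar falls from 28.9% to 17.6% between all anchors and those of luminal factors.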

How the data were processed

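H3K27ac HiChIP reads of the T-47D sample were aligned by the authors to hg19 with HiC-Pro, and loops were called with hichipper and filtered on support. Tool versions are not given in the sources used here. The deposited value of each loop is the count of read pairs joining its anchors (column 8), not scaled for depth or copy number, and the lowest was 3. The depth of the library is not in the list, so precision is limited by 348544 read pairs over 41562 autosomal loops and no replicate error can be given.

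Loops were joined to start sites in Python 3.11.15 (numpy 2.4.6, scipy 1.17.1, matplotlib 3.10.9), with positions counted from 1 on GRCh37. Ties at a threshold were kept. Distances ran from anchor midpoints to the gene's start site in the promoter anchor with most read pairs to that contact. Read pairs of a contact were summed over the gene's promoter anchors. Words were searched with pysam 0.24.0.

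Members, lists and tests were chosen with earlier results of these data known. Named genes were the 5 markers, the 15 highest by each rank, list members in either top 200 and the 3 highest of each list. Lists of transcription factors, receptors and target genes were written from general knowledge, and names not matched to an autosomal gene were left out. Some list members are not reported here. Links planted for made-up loops were recovered when the procedure was tested on simulated data. Alternatives were minima of 5 and 10 read pairs, windows of 2 kb, 1 start site per gene, spans of 20 kb to 1 Mb, promoter-free anchors without start sites of any annotated gene, chromosome X, read pairs to promoter-free anchors only, shared promoters as 1 place, and length in place of number. The other lists of the series were counted for their loops and otherwise not used here.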

Additional observations from a re-analysis of the deposited data

How the results depend on the processing

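Of the 254 leading genes by promoter-free anchors, 204 kept a place at a minimum of 5 read pairs per loop, 144 at 10, 223 with windows of 2 kb, 172 with 1 start site per gene and 166 when ranked by the length of genome that the anchors cover. Of the 200 by read pairs, 148 to 200 kept a place under these minima, windows, span limits and annotations, but 88 when only loops to promoter-free anchors were summed. Genes with a promoter-free anchor fell to 4490 and 2099 at minima of 5 and 10, and the median span to 88.2 and 47.8 kb. It was 146 kb with windows of 2 kb and 145 kb for spans of 20 kb to 1 Mb. With only the Ensembl canonical start site, 7 in place of 11 luminal transcription factors held a place and 52.3% of contacts lay upstream. Then 15 of 91 named genes, among them TRPS1, TYRP1, BMPER, CUEDC1, HOXC6, MYC, GREB1, TFAP2A, NR2F2 and KRT7, had 0 promoter-free anchors, and ESR1 had 8 at a threshold of 9. GATA3 had 17 of its 30 promoter-free anchors within spans of 20 kb to 1 Mb. With chromosome X included all 254 and all 200 kept their places, as did all 254 when genes sharing every promoter anchor took 1 place. The number of promoter-free anchors moved by over 1.5 times for 38 of 91 named genes at a minimum of 5 read pairs and for 82 of 91 at 10, where TBL1XR1 had 11, GATA3 had 12 and NAALADL2 had 3. No paired analysis was possible because there was 1 T-47D sample and no test.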

Other observations

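Chromosomes differed in the share of their protein-coding genes among the leading genes by promoter-free anchors. Chromosome 14 had 23 of 616 genes (3.73%), chromosome 9 had 24 of 799, chromosome 8 had 20 of 709 (2.82%) and chromosome 3 had 27 of 1083 (2.49%). Chromosome 19, which is dense in genes, had 1 of 1480 and chromosome 22 had 0 of 450. By read pairs chromosome 11 had the most places, 42 of 1317 genes (3.19%), and chromosome 9 the highest share, 27 of 799 (3.38%). When chromosome X was included, BCOR, a corepressor of BCL6, had 8 promoter-free anchors and WWC3 had 9, and both held a place.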
